A study of Mus musculus with 23 samples.

Results

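The epidermal growth factor (EGF) family passes signals from secreted ligands to ERBB receptor tyrosine kinases on the cell surface. Its 10 members described here were the genes whose symbol in the deposited table was that of an EGF family ligand (Hbegf, Areg, Ereg, Btc, Tgfa and Epgn), an ERBB receptor (Egfr, Erbb2 and Erbb3) or the feedback inhibitor Errfi1. All 10 were found, with 1 gene identifier each, among the 54354 identifiers of the table. The ligands are made as precursors anchored in the plasma membrane, and proteases cut them free. A bound receptor pairs with another ERBB receptor and switches on the RAS-ERK and PI3K pathways, which in turn raise transcripts such as Errfi1 that damp the receptor. In the intestine these signals drive growth of the crypt epithelium, and in colorectal tumours AREG and EREG levels are studied beside antibodies against EGFR.

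RNA was sequenced from colon tumours of mice, grown from injected organoids that carried a Basp1-eGFP-DTR reporter (genotype label Basp1-GFP) and the background named AKP-tdT. The letters tdT stand for the red protein tdTomato, and the labels do not spell out the alleles behind AKP. The digested primary tumours were sorted into GFP-positive (11 libraries) and GFP-negative (12 libraries) populations, both from tumours of this same background. The labels do not say whether tdTomato was used in the sort, so either population can hold host cells. No label gave a strain, an age, a time after injection or a diet, although the series title holds the letters HFD. The extraction protocol names organoids as the RNA source, so the labels conflict on whether tumours or organoids were extracted. No label said that the libraries came from separate animals, and a p-value therefore speaks only for the spread between libraries, part of which may be technical. The reporter's DTR, the diphtheria toxin receptor, is a primate HBEGF protein. The table had 1 mouse Hbegf entry and no entry for the transgene, and how transgene reads were assigned was not tested.

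Total counts were 37125 to 4238877 in GFP-positive libraries (median 1418140) and 25458 to 2304316 in GFP-negative libraries (median 144334). Fewer than 100000 counts were held by 1 GFP-positive and 3 GFP-negative libraries. Library numbers formed 2 runs, called here library set 1 (5 GFP-positive and 6 GFP-negative) and library set 2 (6 GFP-positive and 6 GFP-negative). Basp1 averaged 57.8 ± 32.9 counts per 1000000 counts of the library (CPM) in GFP-positive and 33.4 ± 27.0 CPM in GFP-negative libraries (SD), a log2 fold change of 0.63 (SE 0.38) that did not pass the test. Epithelial transcripts were present in every library: Epcam stood at 215 to 872 CPM in GFP-positive and 139 to 739 CPM in GFP-negative libraries, and Krt8 at 510 to 1610 CPM in GFP-positive and 693 to 1495 CPM in GFP-negative libraries. Each of the 10 epithelial markers was tested, and 0 of 10 passed, where 0.0151% of the 6621 genes tested passed. Their log2 fold change was positive for 8 of 10 (median 0.30), against 58.5% of all genes tested. It was positive for 5 of 10 in set 1, against 54.1% of genes, and for 10 of 10 in set 2, against 56.1%. Equal epithelial content of the populations therefore cannot be read from the 0 of 10. Transcripts of other cell types were present in both populations. The 12 macrophage markers summed to 131 to 32541 CPM in GFP-positive libraries, with the highest value in GFP-positive 3, and to 421 to 7083 CPM in GFP-negative libraries. The 10 fibroblast markers summed to 0 to 2114 CPM in GFP-positive and 127 to 8752 CPM in GFP-negative libraries. The median Col1a1, Lyz2, Ptprc and Pecam1 levels were 33.1, 142, 16.0 and 18.4 CPM in GFP-positive libraries, against 397, 1302, 12.9 and 27.6 CPM in GFP-negative libraries. Of the 6 T and NK cell markers, Cd3e, Cd3d, Cd8a and Nkg7 had 0 counts in all 23 libraries. The list also holds Trbc1 and Trbc2, and its sum was 108 to 768 CPM in GFP-positive and 52.0 to 465 CPM in GFP-negative libraries. Trbc1, the only one tested, had a log2 fold change of 0.69 (SE 0.36) and did not pass. In set 2, 8 of 8 tested macrophage markers (median log2 fold change -3.68) and 3 of 7 tested fibroblast markers (median -2.86) passed as lower in GFP-positive libraries. In set 1, 0 passed (medians 1.67 and -0.20). That set holds GFP-positive 3, and its median macrophage marker sum was 369 CPM in GFP-positive and 1070 CPM in GFP-negative libraries. Over all libraries 0 passed (medians 0.09 and -2.35). There 5 of 5 tested fibroblast markers were lower at an unadjusted edgeR p of at most 0.05, which 4.95% of genes reached in either direction. The part of these other cell types in the values below was not tested, and in bulk samples fewer cells of a type and less RNA per cell cannot be told apart.

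Hbegf was the most abundant member, and its transcript was the leading EGF family ligand of both populations. Levels between genes were compared as CPM per kilobase of the longest annotated transcript, over the 19 libraries with at least 100000 counts. The median levels per kilobase ran from Hbegf (119) through Errfi1 (73.4), Areg (50.6), Btc (8.62), Erbb3 (6.22), Tgfa (5.09), Erbb2 (3.64), Egfr (2.44) and Ereg (1.69) to Epgn (0). Hbegf stood above Errfi1 in 19 of 19 libraries, and Areg stood above Btc in 18 of 19. Several neighbours changed places between libraries. Errfi1 exceeded Areg in 13 of 19, Erbb3 exceeded Tgfa in 11 of 19 and Egfr exceeded Ereg in 10 of 19 libraries. The other 7 members thus had median levels well below those of Hbegf, Errfi1 and Areg.

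**Figure D1:**
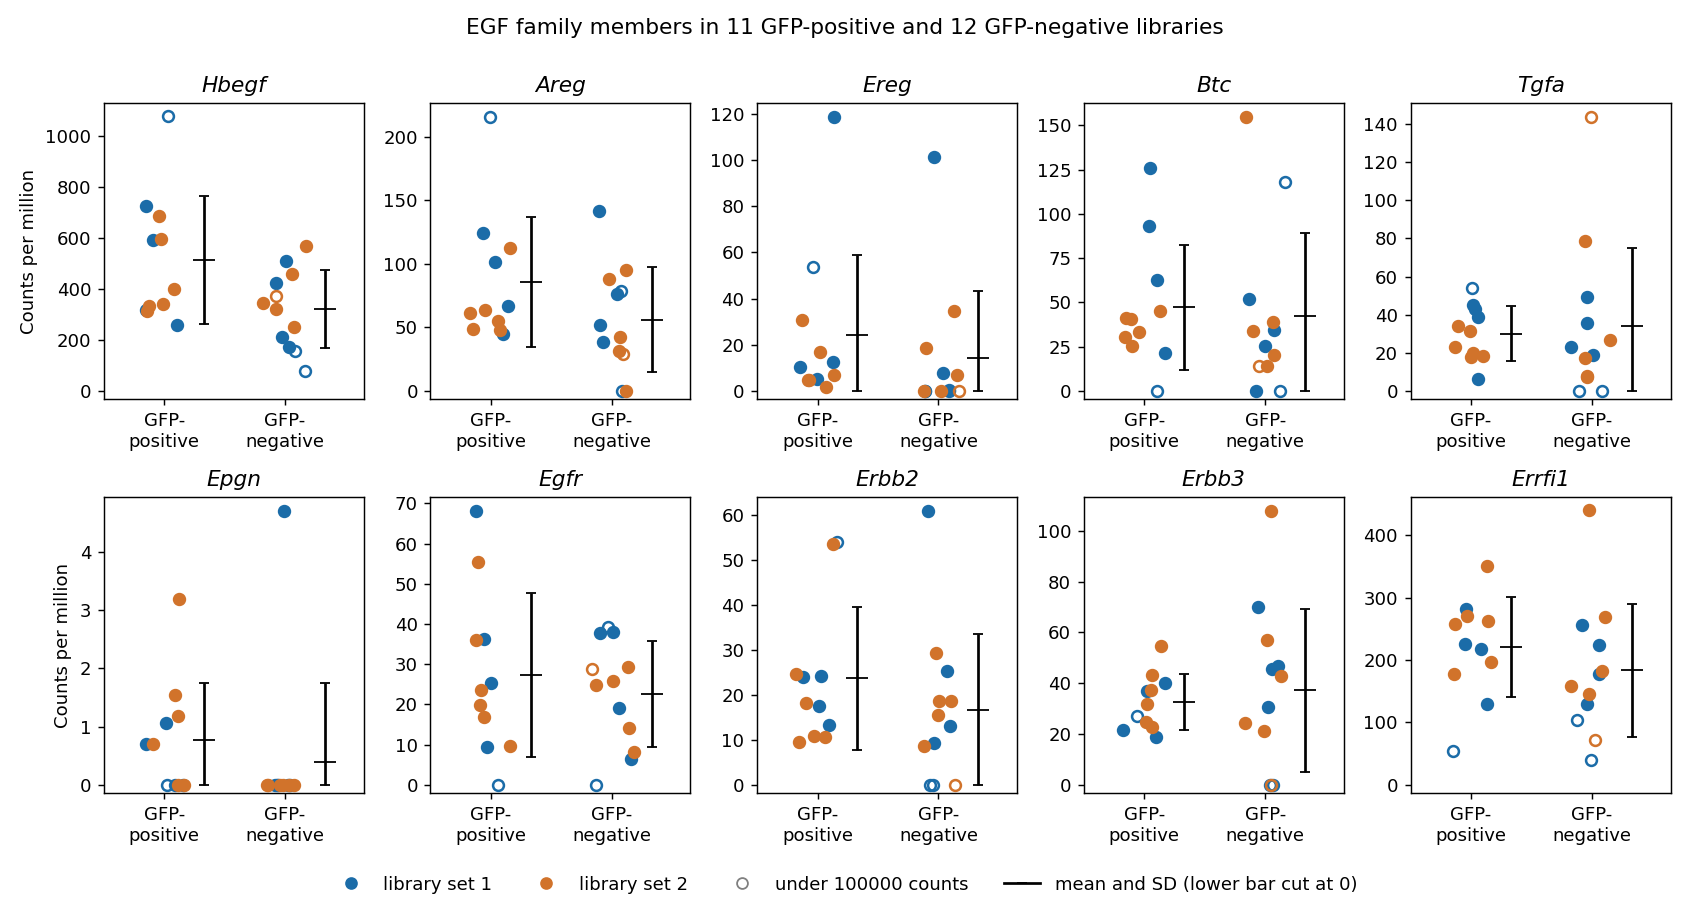
Level of each member (CPM, vertical axis, a separate linear scale per gene) in GFP-positive and GFP-negative libraries, 1 point a library, with blue for library set 1, orange for library set 2 and open points for libraries under 100000 counts; bars give the mean and SD. The populations overlapped for all 10 members, and Hbegf averaged 512 CPM in GFP-positive and 322 CPM in GFP-negative libraries.

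Areg and Errfi1 were the next most abundant after Hbegf, and their promoters are shown because each held a cyclic AMP response element, the site bound by CREB family factors, close upstream of a TATA box. The RefSeq promoter table (GRCm38.p6, 250 bases before to 50 after a gene's start) had 8 entries for 7 of the members, Errfi1 having 2. It had no entry for Hbegf, Ereg or Erbb3, so their promoters were not searched. Both strands were searched for the response element TGACGTCA, the TATA box letters TATAAA and the AP-1 site TGANTCA, the site of FOS and JUN proteins. The Areg promoter is chr5:91139349-91139648 on the plus strand and the Errfi1 promoter is chr4:150854820-150855119 on the plus strand, both 5′ to 3′ with the response element and the TATA letters in capitals.
Areg: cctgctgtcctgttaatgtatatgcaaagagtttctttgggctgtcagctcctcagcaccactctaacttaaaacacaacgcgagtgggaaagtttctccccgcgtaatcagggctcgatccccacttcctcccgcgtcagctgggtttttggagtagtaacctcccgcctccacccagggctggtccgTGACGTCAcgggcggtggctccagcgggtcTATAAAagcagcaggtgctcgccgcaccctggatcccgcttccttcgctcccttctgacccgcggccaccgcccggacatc
Errfi1: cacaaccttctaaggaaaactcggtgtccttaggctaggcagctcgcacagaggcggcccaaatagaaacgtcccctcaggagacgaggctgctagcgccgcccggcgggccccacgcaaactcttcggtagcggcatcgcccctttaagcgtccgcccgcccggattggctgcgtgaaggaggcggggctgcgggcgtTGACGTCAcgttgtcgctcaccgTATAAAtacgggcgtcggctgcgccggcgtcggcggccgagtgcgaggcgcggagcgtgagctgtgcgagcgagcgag
The response element began 61 bases before the Areg start and 51 bases before the start of the Errfi1 entry shown, with the TATA letters 31 and 28 bases before. The Errfi1 entry shown lies within the annotated gene (150853919 to 150868892), and the other Errfi1 entry (150853546 to 150853845) lies before that gene. Over all 32851 promoters of the table, 1.79% held the response element, 13.62% the TATA letters and 7.808% the AP-1 letters. The other Errfi1 entry and the promoters of Btc, Tgfa, Egfr and Erbb2 held none of the 3 motifs, and the Epgn promoter held the TATA letters. A match describes the sequence and does not show that a factor binds it. Areg and Errfi1 levels had a Spearman rho of 0.44 over the 19 libraries, which include both populations and a wide range of depths. Hbegf, which had no promoter entry, had a higher rho of 0.57 with each of them. Whether the shared motifs have a part in these values was not tested.

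Hbegf encodes heparin-binding EGF-like growth factor, which binds EGFR and ERBB4. The gene (ENSMUSG00000024486) lies at 36504927 to 36515805 on the minus strand of chromosome 18 (mm10). Its level ran from 257 to 1077 CPM in GFP-positive libraries (median 400 CPM, n = 11) and from 78.6 to 569 CPM in GFP-negative libraries (median 332 CPM, n = 12). The means were 512 ± 250 CPM in GFP-positive and 322 ± 152 CPM in GFP-negative libraries (SD). The ranges overlapped, with 5 of the 11 GFP-positive libraries above every GFP-negative library and 5 of the 12 GFP-negative libraries below every GFP-positive library. The extremes were libraries of low depth: GFP-positive 4, with 40 Hbegf counts, stood at 1077 CPM (95% exact Poisson interval 770 to 1467), and GFP-negative 5, with 2 counts, at 78.6 CPM (9.51 to 284). These intervals cover counting error only. The fitted log2 fold change was 0.57 (SE 0.23, 95% interval 0.09 to 1.05), a 1.48-fold higher level in GFP-positive libraries. This did not pass edgeR's quasi-likelihood test (p = 0.0204, adjusted p = 0.951 by Benjamini and Hochberg). Without the libraries under 100000 counts the value was 0.35 (p = 0.122), more than 1.5 times smaller.

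Hbegf was also compared within each library set. In set 1 the GFP-positive libraries stood at 723, 593, 257, 1077 and 315 CPM, and the GFP-negative libraries ran from 78.6 to 508 CPM with a median of 192 CPM. Here 4 of the 5 GFP-positive libraries lay above the GFP-negative median of that set by more than 1.5 times, and the ranges overlapped. The log2 fold change in set 1 was 0.97 (SE 0.41, p = 0.0318, adjusted p = 0.894). Without the libraries under 100000 counts it was 0.52 (p = 0.252). In set 2 GFP-positive libraries ran from 313 to 687 CPM (median 370 CPM) and GFP-negative libraries from 249 to 569 CPM (median 359 CPM), and the log2 fold change was 0.24 (SE 0.24, adjusted p = 0.914). With 1 library left out the set 2 value ran from 0.12 (without GFP-positive 11) to 0.38 (without GFP-negative 11). The difference between the sets was -0.72 (SE 0.46, set 2 minus set 1) and did not pass its own test (interaction term in edgeR, p = 0.126, adjusted p = 0.801). Beside Basp1, the gene of the reporter, Hbegf gave a Spearman rho of 0.16 over 19 libraries. Egfr had the highest rho with Basp1 of the 8 tested members, 0.58, and the other 7 lay between -0.10 and 0.20, a description over libraries of both populations.

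Areg encodes amphiregulin, an EGFR ligand of low affinity. Its gene (ENSMUSG00000029378) lies at 91139599 to 91148432 on the plus strand of chromosome 5. The level was 45.1 to 215 CPM in GFP-positive libraries (median 63.8 CPM) and 0 to 141 CPM in GFP-negative libraries (median 47.2 CPM). All GFP-positive libraries had Areg counts, while GFP-negative 4 and GFP-negative 10 had 0, where 3 counts would stand for 52.0 and 25.8 CPM. The depth of GFP-negative 4 could not show a level as low as the group median. The log2 fold change was 0.44 (SE 0.34, adjusted p = 0.997), with 0.48 in set 1 and 0.38 in set 2. Leaving out 1 library at a time moved it between 0.32 (without GFP-negative 10) and 0.69 (without GFP-negative 1). Without the libraries under 100000 counts it was 0.23 over all libraries and 0.18 in set 1. The set 1 value was 1.02 without GFP-negative 1 and 0.73 without GFP-positive 5. The set 2 value was 0.21 without GFP-positive 11, 0.21 without GFP-negative 10 and 0.83 without GFP-negative 7.

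Btc encodes betacellulin, which binds EGFR and ERBB4, and it lies on the minus strand of chromosome 5 at 91357261 to 91402994. Its level was 0 to 126 CPM in GFP-positive libraries (median 40.8 CPM) and 0 to 155 CPM in GFP-negative libraries (median 29.7 CPM). The highest value of each population was a single library well above the median, GFP-positive 1 with 535 counts and GFP-negative 10 with 18 counts. The log2 fold change was 0.45 (SE 0.42, adjusted p = 0.997), 1.05 (SE 0.62) in set 1 and -0.14 (SE 0.51) in set 2. It was 0.21 without GFP-positive 1 and stood at 0.83 without GFP-negative 10. Tgfa, the gene of transforming growth factor alpha, an EGFR ligand, had 6.14 to 53.9 CPM in GFP-positive libraries (median 31.5 CPM) and 0 to 144 CPM in GFP-negative libraries (median 21.0 CPM). The top value came from GFP-negative 12, which held 10 Tgfa counts. The log2 fold change of Tgfa was -0.15 (SE 0.42, adjusted p = 0.997), and without GFP-negative 12 it was 0.13.

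Ereg, the gene of epiregulin, and Epgn, the gene of epigen, are EGFR ligands that did not reach the count filter. Together with Areg and Btc they are consecutive protein-coding genes on chromosome 5 (Epgn, Ereg, Areg, Btc), between Mthfd2l and Parm1. Their levels per kilobase differed widely despite this shared neighbourhood, with medians of 0, 1.69, 50.6 and 8.62. Ereg had 1.60 to 119 CPM in GFP-positive libraries (median 10.3 CPM) and 0 to 101 CPM in GFP-negative libraries (median 0.22 CPM). It had counts in all 11 GFP-positive libraries and 0 counts in 6 of the 12 GFP-negative libraries. The mean of log2(CPM + 1) was 3.73 in GFP-positive and 1.90 in GFP-negative libraries, a difference of 1.84 (two-sided permutation test with 100000 resamples, p = 0.0479, not adjusted). The difference was 0.60 (p = 0.203) with 10 in place of 1 as the added constant. An edgeR fit with no filter gave Ereg a log2 fold change of 0.47 (SE 0.84, adjusted p = 0.858). The GFP-negative libraries were the shallower ones: in 3 of the 6 with 0 Ereg counts, 3 counts would stand for more than 40 CPM. Within library sets the difference was 2.79 in set 1 (exact permutation p = 0.0952) and 1.02 in set 2 (exact permutation p = 0.390). Epgn had 17 counts over all GFP-positive libraries and 2 counts over all GFP-negative libraries, both in GFP-negative 1, and 0 counts in 5 of 11 and 11 of 12 libraries. Pooled over the libraries of a population, this was 0.90 CPM in GFP-positive and 0.33 CPM in GFP-negative. The difference of the means of log2(CPM + 1) was 0.44 (two-sided permutation test with 100000 resamples, p = 0.166, not adjusted).

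Identifier 3034, the name that GFP-positive 1 and GFP-negative 1 share, stood apart for Ereg and was singled out after its values were seen. Ereg had 119 CPM (503 counts) in GFP-positive 1, against a median of 8.67 CPM and a highest value of 53.9 CPM in the 10 other GFP-positive libraries. In GFP-negative 1 it had 101 CPM (43 counts), against a median of 0 and a highest value of 34.4 CPM in the 11 other GFP-negative libraries. Both populations of this identifier therefore held the highest Ereg level of their group. The pair gave 77.1% of all Ereg counts, while it gave 18.7% of all counts of the table. The same pair gave 42.0% of Egfr, 39.4% of Btc, 30.6% of Areg and 28.8% of Hbegf counts, but 19.2% of Erbb3 and 23.3% of Erbb2 counts. Egfr and Btc were highest in GFP-positive 1 among the GFP-positive libraries, at 68.2 and 126 CPM.

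Hbegf and Areg made up most of the summed ligand level per kilobase in both populations. The Hbegf share was 48.8% to 73.8% in GFP-positive libraries (median 65.1%) and 22.4% to 100% in GFP-negative libraries (median 67.5%). Among libraries of at least 100000 counts its share in GFP-negative libraries ran from 51.3% to 71.2%. Hbegf ranked first among the 6 ligands in 11 of 11 GFP-positive and 11 of 12 GFP-negative libraries; the exception was GFP-negative 5, with 7 ligand counts in all, where Areg ranked first. Areg ranked next in 11 of 11 GFP-positive and 8 of 12 GFP-negative libraries, with median shares of 24.2% and 23.4%. The lowest Hbegf share and the highest Areg share among GFP-positive libraries, 48.8% and 45.8%, were in GFP-positive 3, the library with the highest macrophage marker sum. This is 1 library, and the part of macrophage transcripts in its shares was not tested. Btc (median 4.85% in GFP-positive and 3.36% in GFP-negative libraries) and Tgfa (2.66% and 3.35%) made up most of the rest. The median Ereg share was 0.858% in GFP-positive and 0.0256% in GFP-negative libraries. Shares carry no test here.

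**Figure D2:**
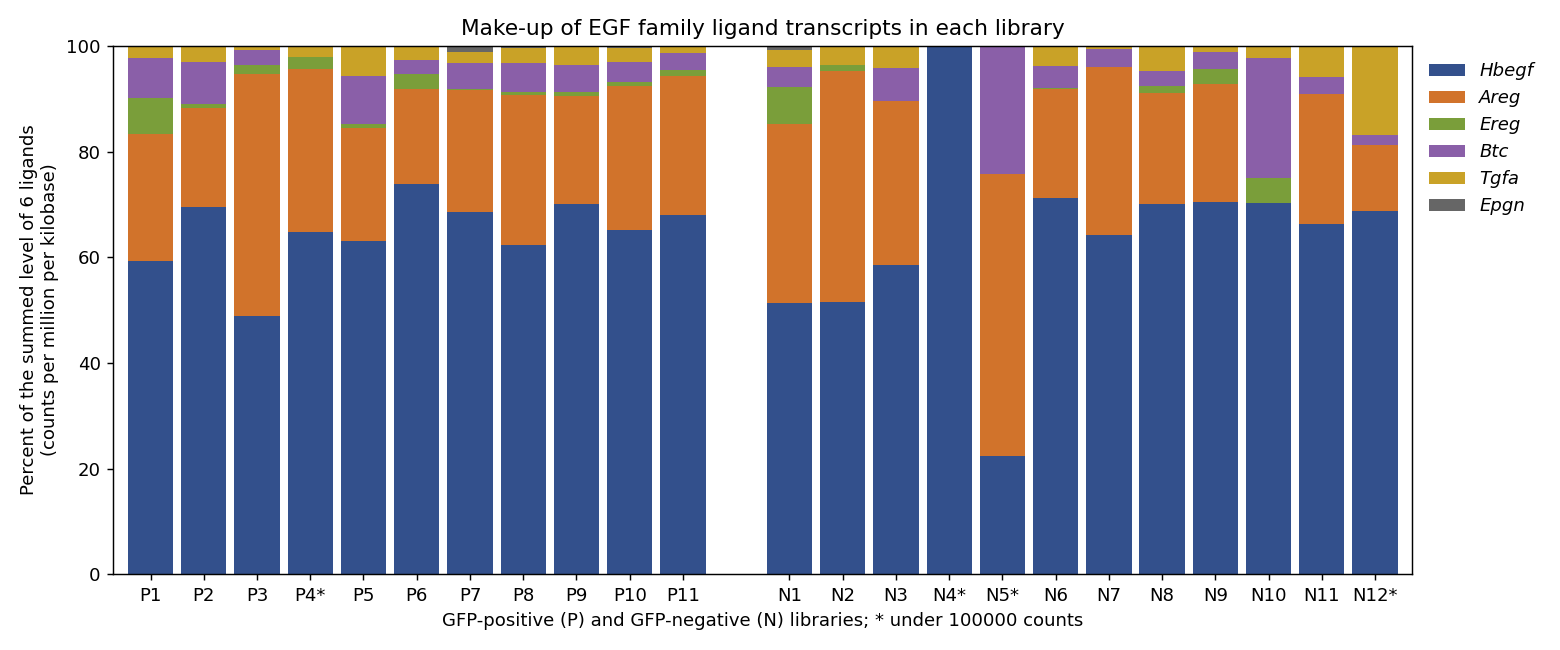
Percent of the summed ligand level (CPM per kilobase) taken by each of 6 ligands, 1 stacked bar for each GFP-positive (P) and GFP-negative (N) library; asterisks mark libraries under 100000 counts. Hbegf is the largest part in every GFP-positive bar and in 11 of 12 GFP-negative bars.

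The summed receptor level was below the summed ligand level in both populations, while in the order of medians given above Erbb3 stood above Tgfa, and all 3 receptors above Ereg and Epgn. Egfr, the receptor of all 6 ligands, had 0 to 68.2 CPM in GFP-positive libraries (median 23.5 CPM) and 0 to 39.3 CPM in GFP-negative libraries (median 25.4 CPM). Its log2 fold change was 0.44 (SE 0.39, adjusted p = 0.997) and 0.20 without GFP-positive 1. Erbb2, which has no known ligand and acts as a partner of the other receptors, had 9.57 to 53.9 CPM in GFP-positive libraries (median 18.2 CPM) and 0 to 60.9 CPM in GFP-negative libraries (median 14.3 CPM). Its log2 fold change of 0.24 (SE 0.39, adjusted p = 0.997) was 0.00071 without GFP-positive 9. Erbb3, a neuregulin receptor with a weak kinase, had 18.8 to 54.8 CPM in GFP-positive libraries (median 31.9 CPM) and 0 to 108 CPM in GFP-negative libraries (median 36.8 CPM). The GFP-positive libraries lay within the range of the GFP-negative ones, and the log2 fold change was -0.26 (SE 0.34, adjusted p = 0.997), or -0.11 without GFP-negative 11. In each population the Erbb3 level per kilobase was most often the highest of the 3 receptors, in 7 of 11 GFP-positive and 8 of 12 GFP-negative libraries. The median ratio of the summed ligand level to the summed receptor level was 21.0 in GFP-positive libraries (8.46 to 44.4, n = 11) and 14.9 in GFP-negative libraries (5.85 to 66.9, n = 11, leaving out GFP-negative 4, which had 0 receptor counts). Receptor counts per library were as low as 3 in GFP-positive libraries, so these ratios are coarse.

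Errfi1, also called MIG6, binds the kinase domain of EGFR and shuts it off. The gene (ENSMUSG00000028967) lies at 150853919 to 150868892 on the plus strand of chromosome 4. Its level was 53.9 to 351 CPM in GFP-positive libraries (median 225 CPM) and 39.3 to 441 CPM in GFP-negative libraries (median 168 CPM). The lowest value of each population came from a library under 100000 counts, GFP-positive 4 with 2 counts and GFP-negative 5 with 1 count. The means were 220 ± 80.3 CPM in GFP-positive and 183 ± 107 CPM in GFP-negative libraries (SD). The fit gave a log2 fold change of 0.26 (SE 0.25, adjusted p = 0.997), and it was 0.40 without GFP-negative 11 and 0.17 without the libraries under 100000 counts. With 1 library left out the value ran from 0.022 to 0.37 in set 1 and from 0.16 to 0.56 in set 2.

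Over the family, 0 of the 8 tested members passed the test over all libraries (edgeR, Benjamini-Hochberg), where 0.0151% of the 6621 genes tested passed. In set 1, 0 of 8 passed, against 0% of 5256 genes. In set 2, 0 of 8 passed, against 1.28% of 6952 genes, and the interaction of population and set called 0 members against 0% of genes. DESeq2 called 0 members in each of these 3 scopes. At an unadjusted p of at most 0.05, 1 of 8 members (Hbegf) stood out over all libraries, against 4.95% of genes, the same 1 of 8 in set 1, against 5.4%, and 0 of 8 in set 2, against 6.88%. The log2 fold change was positive for 6 of 8 members, against 58.5% of all genes tested, and the median was 0.35, against 0.07 over all genes. In set 1 it was positive for 7 of 8 members, against 54.1% of genes, and in set 2 for 5 of 8, against 56.1%. The members' medians were 0.31 in set 1 and 0.26 in set 2, against 0.05 and 0.07 over all genes. Over all libraries the 95% interval of each tested member other than Hbegf spanned 0, and each reached from -0.24 or lower to 0.43 or higher. The widest, that of Btc, ran from -0.40 to 1.31. The fits thus did not separate these members from 0, and each interval gives the differences compatible with these libraries.

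**Figure D3:**
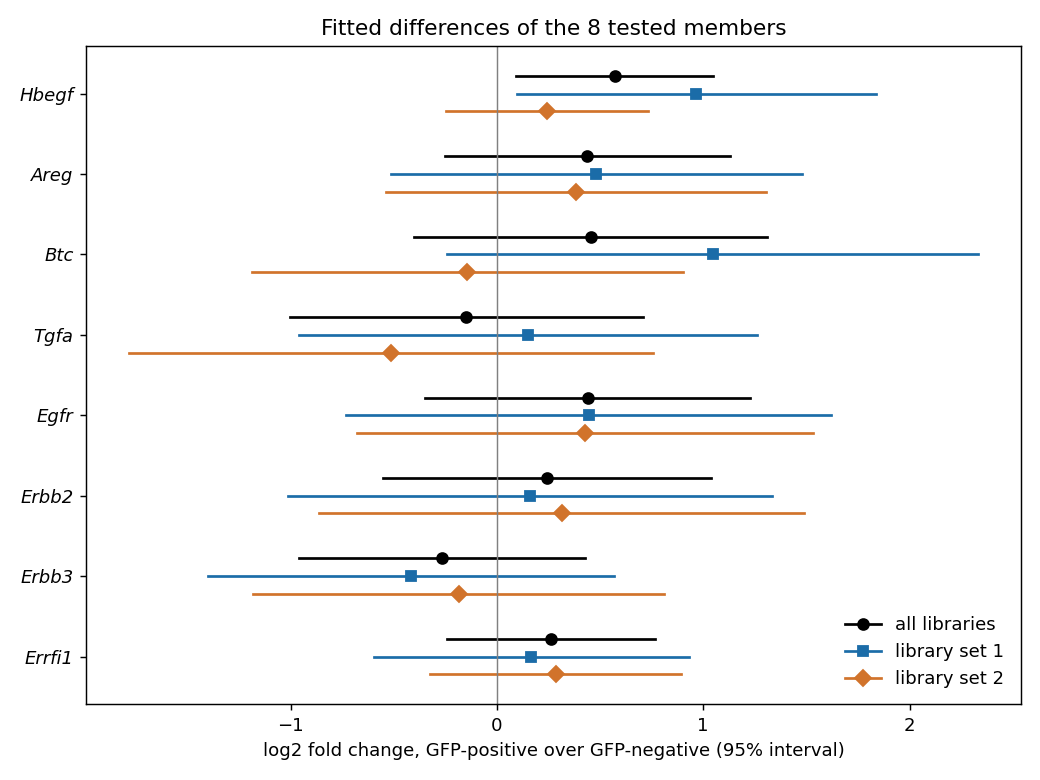
Log2 fold change, GFP-positive over GFP-negative, of the 8 tested members (horizontal axis, edgeR, with 95% intervals) over all libraries and within each library set. The Hbegf intervals over all libraries (0.09 to 1.05) and in set 1 lie above 0, and that in set 2 spans it.

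Both populations were available for 10 identifiers of the library names, read as a possible common source. Identifier 8045-8050 sets the GFP-positive library of that joined name against the mean of GFP-negative 4 (named 8050) and GFP-negative 5 (named 8045), and identifier 61-1 averages GFP-positive 2 and GFP-positive 7, which lie in different library sets. For Hbegf, 8 of 10 had more in the GFP-positive population, with a mean difference of log2(CPM + 1) of 0.51 ± 1.13 (SD, n = 10 identifiers, exact two-sided sign-flip p = 0.166; the smallest possible is 0.00195). The widest gap was in identifier 8045-8050, which rests on libraries under 100000 counts, and without it the mean was 0.21 (exact sign-flip p = 0.332). Without any library under 100000 counts the mean was 0.13 (n = 8 identifiers, 6 of them higher, exact sign-flip p = 0.570). The 2 identifiers with lower Hbegf in GFP-positive libraries were 7789-7795 (257 CPM in GFP-positive, 422 CPM in GFP-negative) and 7914 (313 CPM in GFP-positive, 569 CPM in GFP-negative). In 7789-7795 the macrophage markers summed to 32541 CPM in GFP-positive 3 and 421 CPM in GFP-negative 6, while in each of the other 9 identifiers the GFP-positive side had the lower sum. Without 7789-7795, left out after seeing the data, the mean Hbegf difference was 0.65 (exact sign-flip p = 0.0703), and the part of those transcripts in the value was not tested. Areg, Ereg, Erbb2, Erbb3 and Errfi1 had more in GFP-positive cells in 6 of 10 identifiers each. Btc and Tgfa were higher in 5 of 10, and Egfr in 4 of 10. Epgn was higher in 4, lower in 1 and equal in 5 of the 10 identifiers. The exact sign-flip p was 0.117 for Ereg and 0.121 for Areg, the lowest of the 10 members.

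**Figure D4:**
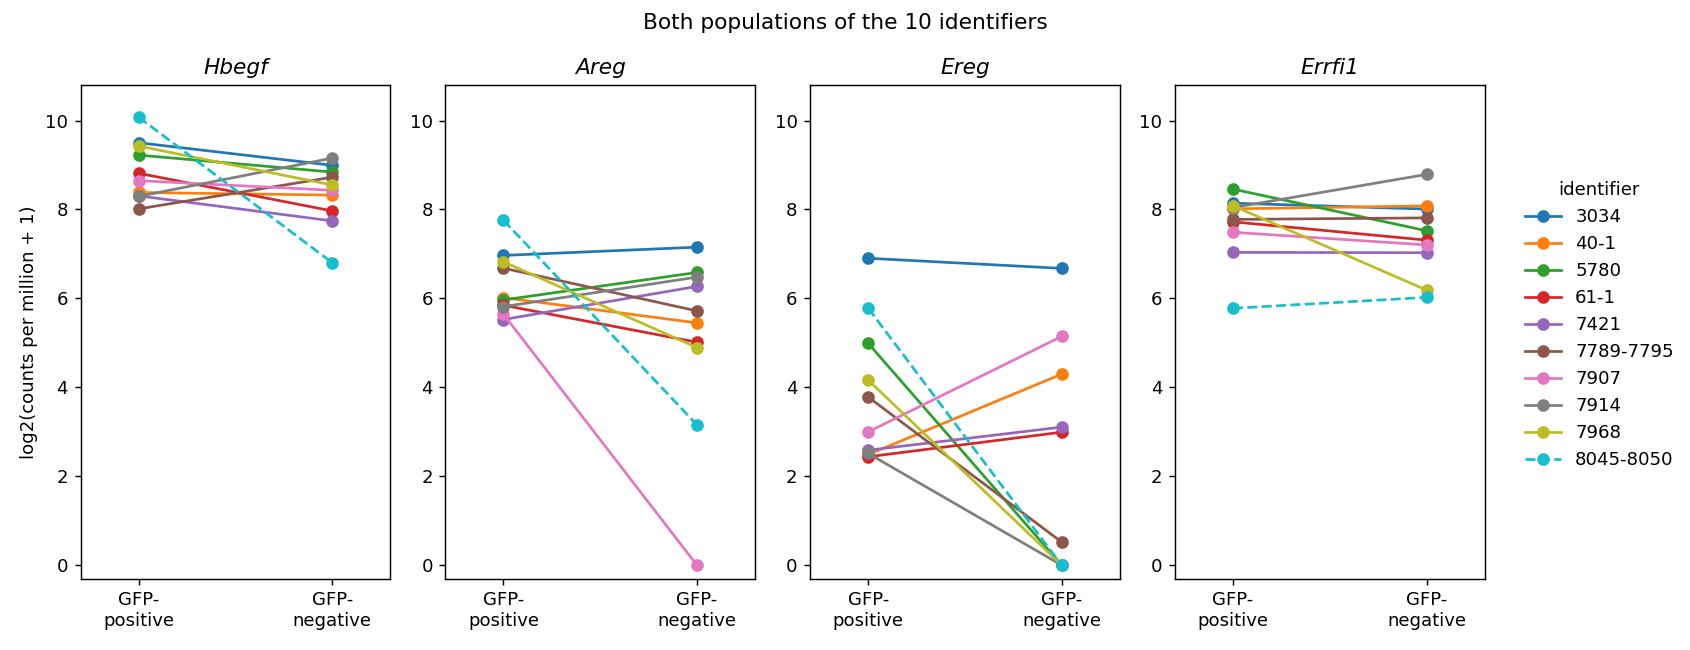
Levels, as log2(CPM + 1), of Hbegf, Areg, Ereg and Errfi1 in the GFP-positive (left) and GFP-negative (right) population of 10 identifiers, 1 line each; the dashed line is 8045-8050, which rests on libraries under 100000 counts. Hbegf is higher on the GFP-positive side in 8 of 10 identifiers, and Ereg of identifier 3034 is the highest on both sides.

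Across the 19 libraries the genes most like Hbegf among 6620 were Ndrg1 (Spearman rho 0.84), a stress and hypoxia responsive gene, Cpe (0.78), the gene of carboxypeptidase E, and Prrx2 (0.75), a homeobox gene. Those most like Errfi1 were Lamp2 (0.81), a lysosomal membrane protein gene, Copb2 (0.78), a coat protein gene of vesicle transport, and Tmub1 (0.76). Among the members the highest values were 0.59 for Tgfa with Egfr, 0.58 for Hbegf with Btc and 0.57 for Hbegf with Errfi1 and with Areg. The lowest was -0.36 for Btc with Erbb2. These values are descriptions over libraries that differ in population, depth and set.

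Nrg1, the gene of a neuregulin that binds ERBB3, had 106 counts over the GFP-positive and 44 over the GFP-negative libraries. Its level ran from 0 to 26.9 CPM in GFP-positive (median 1.18 CPM) and from 0 to 30.6 CPM in GFP-negative libraries (median 5.40 CPM). Egf itself had 10 and 1 counts and Nrg4 had 12 and 2 counts, out of 18828534 GFP-positive and 6081198 GFP-negative counts in all. Nrg2, Nrg3 and Erbb4 had 0 counts in all 23 libraries. Of these 6 genes, 0 reached the filter.

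Pathway genes around the receptors were read from 5 lists by role, and over all libraries 0 of their tested genes passed. For ligand shedding, 6 of 10 genes were tested, with a median log2 fold change of -0.11. The most expressed was Timp3, an inhibitor of ADAM17, the main protease that sheds these ligands. Timp3 averaged 83.0 ± 83.4 CPM in GFP-positive and 180 ± 203 CPM in GFP-negative libraries (SD), with a log2 fold change of -1.30 (SE 0.66, adjusted p = 0.996) over all libraries, 0.30 in set 1 and -2.51 in set 2 (adjusted p = 0.166). Fibroblast marker sums moved with it in set 2, at 167 to 981 CPM in GFP-positive and 1135 to 8752 CPM in GFP-negative libraries, and their part in the Timp3 value was not tested. Adam17 itself had -0.17 (SE 0.41) over all libraries, 0.77 (SE 0.54) in set 1 and -1.08 (SE 0.53, edgeR adjusted p = 0.752) in set 2. Adam10, the gene of another ligand sheddase, had 0.35 (SE 0.28) over all libraries, 0.59 in set 1 and 0.12 in set 2. Of the receptor negative regulators, 5 of 12 were tested with a median of 0.23, Sh3kbp1, an endocytosis adaptor, being the most expressed (0.48, SE 0.24, adjusted p = 0.996). For the RAS-ERK core 13 of 16 were tested with a median of 0.27. The PI3K arm had 6 of 8 tested and a median of 0.03, with -0.02 (SE 0.30) for Akt1. Of the ERK feedback and target transcripts 14 of 18 were tested with a median of 0.09. Ier3, an early response gene, was their most expressed member (0.20, SE 0.23), and Dusp6, a phosphatase gene induced by ERK, had 0.54 (SE 0.30, adjusted p = 0.996).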

How the data were processed

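Bulk RNA was measured in 23 libraries: per the labels, poly(A)-selected RNA was made into directional libraries. The authors deposited expected counts (estimated read counts per gene), made with Salmon 1.3.0 on mm10 per the submitters' processing notes; the deposited values were already whole numbers, and the sources used here do not give its annotation. It shares reads that match several transcripts by its model, so counts of genes with close copies are estimates. Symbols were those the authors gave with the counts. Coordinates and transcript lengths came from GENCODE M21, which held 51528 of 54354 identifiers (94.8%). CPM is a gene's count per 1000000 counts of its library, without TMM factors. Differences between groups were fitted over the whole table with edgeR 4.0.16 in R 4.3.3 (TMM, filterByExpr by group, robust quasi-likelihood test, Benjamini-Hochberg at 0.05). Ereg and Epgn, under the filter, were compared by permutation of log2(CPM + 1), and identifiers by exact sign-flip tests (scipy 1.17.1). The edgeR fit was tested on simulated counts for all libraries and for set 2, and the permutation and sign-flip tests were not. Alternatives were DESeq2 1.42.0, other scaling, no filter, depth, added constants, blocks, library set and each library left out. A chi-square test separated all 121 pairs of libraries within a group (0 with p over 0.05), which does not show that they come from separate animals; GFP-positive 2 and GFP-positive 7 carry the same identifier, 61-1, and lie in different library sets. Each library entered once. Total counts of 25458 to 4238877 bound precision; intervals and the 3-count floors cover counting error only.

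The text names the 10 members, of each pathway list the most expressed tested gene where 0 passed (that of the RAS-ERK list is not reported here), the 3 genes most like each of the 2 most abundant members, and Basp1, Epcam, Krt8, Col1a1, Lyz2, Ptprc and Pecam1 as checks; Adam17, Adam10 and Dusp6, the other ERBB genes and identifier 3034 were added after their values were seen. The members and lists were chosen with earlier results of these data known.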

Additional observations from a re-analysis of the deposited data

Results flagged for a closer look

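Within library sets, 39 groups of 5 or 6 libraries were examined for a library far from its neighbours, and 6 were marked. Chance marks about 1 in 20 groups where values are normally distributed. Low counts are not, and a lone library above 0 is always marked, so 6 of 39 cannot be read against that rate. Areg stood at 112 CPM in GFP-positive 11 (159 counts), against 47.9 to 63.8 CPM in the other GFP-positive libraries of set 2. Ereg stood at 101 CPM in GFP-negative 1 (43 counts), against 0 to 7.62 CPM in the other GFP-negative libraries of set 1. Btc stood at 155 CPM in GFP-negative 10 (18 counts), against 13.9 to 39.2 CPM in the other GFP-negative libraries of set 2. Epgn stood at 4.71 CPM in GFP-negative 1 on 2 counts, against 0 in the other GFP-negative libraries of set 1. Erbb2 stood at 53.9 CPM in GFP-positive 4 on 2 counts, against 13.2 to 24.3 CPM in the other GFP-positive libraries of set 1. Erbb2 also stood at 53.6 CPM in GFP-positive 9 (46 counts), against 9.57 to 24.6 CPM in the other GFP-positive libraries of set 2.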

How the results depend on the processing

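Over all libraries and in both sets, 0 members were called under every alternative run, with 8 members tested in the fits reported and other numbers where an alternative changed the filter or the libraries. The number of genes called over all libraries, 1 in the fit reported, was 61 with DESeq2 and 0 to 16 with 1 library left out, the highest without GFP-positive 3. It was 11 with DESeq2 in set 1 (0 in the fit reported, 0 to 6 with 1 library left out) and 288 with DESeq2, 375 with no filter in set 2 (89 in the fit reported, 65 to 118 with 1 library left out). For the replicate block, libraries with the same title number shared an identifier in 2 of 11 cases. They correlated at -0.17 to 0.40 (2 of 11 over 0.1, 1 of 11 best with its own number). Libraries of an identifier correlated at -0.22 to 0.40 (5 of 12 over 0.1, 4 of 12 best with their own). The fit reported used neither as a block. Some of these libraries held fewer than 100000 counts, so the correlations cannot decide whether libraries of an identifier share a source. A block by identifier called 3 genes over all libraries and 140 in set 2, a block by title number 2, and a block by identifier without GFP-positive 3, chosen after seeing the data, 100. The Hbegf value was 0.49 with the block by identifier, 0.64 with the block by title number and 0.19 with the identifier block without libraries under 100000 counts. Hbegf kept its sign throughout, at 0.48 to 0.65 with 1 library left out. Tgfa turned positive over all libraries without libraries under 100000 counts (0.029), with the title block (0.25), the identifier block without those libraries (0.074) or without GFP-positive 3 (0.15), and ran from -0.31 to 0.13 with 1 library left out. In set 1 the sign turned without libraries under 100000 counts for Tgfa (-0.015) and Erbb2 (-0.11), with the block for Tgfa (-0.37), Egfr (-0.10) and Errfi1 (-0.045), and with 1 library left out for Erbb2 (-0.048 to 0.74) and Egfr (-0.12 to 0.80). In set 2 it turned for Btc with no filter (0.051) and with the block (0.15), for Tgfa without libraries under 100000 counts (0.14), and with 1 library left out for Btc (-0.38 to 0.62), Tgfa (-0.85 to 0.14), Erbb2 (-0.19 to 0.50) and Erbb3 (-0.32 to 0.15). Within identifiers it turned for Tgfa without 8045-8050 (-0.23), for Egfr with an added constant of 10 (0.029), without libraries under 100000 counts (0.31) or without 8045-8050 (0.19), and for Erbb3 without libraries under 100000 counts (-0.37). The Ereg difference of 1.84 was 0.60 with an added constant of 10. The cause was not tested in any of these. Depth limits the values that rest on few counts, as given beside the libraries concerned.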
